A study of Mus musculus with 6 samples.

Results

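The TGF-beta ligands, their receptors, the Smad proteins that carry their signal and the Smad co-repressor TGIF1 were followed in sorted mouse peritoneal macrophages. The members were the rows of the gene count table with the symbols Tgfb1, Tgfb2, Tgfb3, Tgfbr1, Tgfbr2, Smad2, Smad3, Smad4, Smad7 and Tgif1. They were chosen by pathway, with earlier results of these data known. All 10 were found among the 48709 genes of the table. Messenger RNA had been sequenced from 3 Zeb1 (+/-) libraries and 3 wild-type libraries, each made from the pooled cells of 2 mice. All mice were untreated C57BL/6 animals of 6 to 8 weeks. The cells came from peritoneal lavage and were sorted on F4/80 and CD11b. The Zeb1 (+/-) mice were heterozygous for Zeb1, and the labels do not describe the allele or the cells in which it is disrupted. Nothing in the labels says more of how the pools were formed, and p-values here rest on the spread among pools and leave out that among individual animals.

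TGF-beta is secreted in a latent form held by its own propeptide, and once freed it binds a type II receptor, encoded by Tgfbr2, which then activates the type I receptor encoded by Tgfbr1. The type I receptor phosphorylates SMAD2 and SMAD3, which join SMAD4, enter the nucleus and act on genes together with partners and repressors. SMAD7 is the inhibitory Smad that feeds back on the receptors, and TGIF1 is a homeobox co-repressor that binds SMAD2 and SMAD3. ZEB1 is a zinc-finger repressor that TGF-beta induces in epithelial cells and that can itself bind Smads. In the peritoneal cavity, Tgfb2 has been described among the genes of resident macrophages that depend on the transcription factor GATA6.

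The libraries held 17859872 to 42165006 counts, so 1 CPM (a count scaled to a common library size, here with TMM factors) stood for 17.9 to 42.3 counts. Zeb1 itself was at 3.85, 3.45 and 3.62 CPM in Zeb1 (+/-) replicates 1, 2 and 3, against 5.44, 7.56 and 7.22 CPM in wild-type replicates 1, 2 and 3. Its log2 fold change, always given as Zeb1 (+/-) over wild-type, was −0.89 ± 0.16 (SE), with an edgeR Benjamini-Hochberg adjusted p of 0.0522 over all tested genes. The 6 macrophage markers were all present, led by Lyz2, Itgam and Adgre1, and so were all 6 markers of large peritoneal macrophages. Other features of the libraries also differed, and their part in the results below was tested only as far as the alternatives named there. The 15 B cell markers in the table summed to 163 to 192 CPM in Zeb1 (+/-) libraries and to 212 to 373 CPM in wild-type libraries, with wild-type replicate 3 highest. Of 14 tested, 12 had groups that did not overlap, beside 19.9% of all tested genes, and 0 passed an edgeR adjusted p of 0.05. One of these genes, Bank1, made up 76.3 and 73.9 CPM of the Zeb1 (+/-) and wild-type means. The mean log2 CPM of the tested B cell markers was 2.03 to 2.38 in Zeb1 (+/-) and 2.70 to 3.63 in wild-type libraries. This mean is the covariate of the B cell adjustment below, which therefore cannot tell B cell content from genotype. Small structural RNAs summed to 42.2 to 45.5 CPM in 4 libraries but were at 4.14 and 8.69 CPM in replicates 1 and 2 of the wild-type. With this split (the structural RNA classes) as a term, the genotype difference rests on wild-type replicate 3 alone. That library was also the highest in B cell markers. Transcripts of mesothelium and fibroblasts summed to at most 0.396 CPM in Zeb1 (+/-) and 1.24 CPM in wild-type libraries. Of 10 T and NK cell markers 2 were tested. Cd2, an adhesion receptor of lymphocytes, fell to 10.5 ± 0.673 CPM in Zeb1 (+/-), against 16.3 ± 1.08 CPM in wild-type (SD, n = 3 each; edgeR adjusted p = 0.0246). The other tested marker, Cd4, did not pass (0.360 CPM in Zeb1 (+/-), 0.500 CPM in wild-type; edgeR adjusted p = 0.747). The untested markers were near the floor, such as Cd3e at 0.194 CPM in both genotypes, so T and NK cell content cannot be read from Cd2. The haemoglobin gene Hba-a1 was at 0.837 to 8.71 CPM in Zeb1 (+/-), and at 7.70 and 6.37 CPM in wild-type replicates 2 and 3 but 41.3 CPM in replicate 1.

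The sequences just upstream of the pair of expressed ligand genes are shown so that the pair of ligand genes whose levels are set against each other below can be seen. Both are the 250 bases before the RefSeq transcript start on GRCm38.p6, written in the direction of the gene. The Tgfb2 window is chr1:186705990-186706239 on the minus strand and the Tgfb1 window is chr7:25686752-25687001 on the plus strand. Capitals mark matches to CAGAC, which is GTCTG on the other strand and belongs to the Smad-binding element. They also mark the palindrome CACGTG, an E-box, and the TATA-box letters TATAAA, which are TTTATA on the other strand.
Tgfb2: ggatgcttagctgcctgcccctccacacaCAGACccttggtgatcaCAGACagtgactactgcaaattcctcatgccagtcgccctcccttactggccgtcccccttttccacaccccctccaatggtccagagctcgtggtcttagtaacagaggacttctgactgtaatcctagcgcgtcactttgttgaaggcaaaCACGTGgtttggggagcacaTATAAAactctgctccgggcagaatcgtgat
Tgfb1: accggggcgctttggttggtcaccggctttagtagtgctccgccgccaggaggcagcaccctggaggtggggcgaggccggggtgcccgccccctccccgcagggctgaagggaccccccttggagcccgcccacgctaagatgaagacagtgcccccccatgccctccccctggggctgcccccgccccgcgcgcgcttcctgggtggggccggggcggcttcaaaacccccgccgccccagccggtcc
The Tgfb2 window held CAGAC at 221 and 204 bases before the start, CACGTG at 51 and TATAAA at 31, with no overlap between them, and its GC content was 53.6%. The Tgfb1 window held none of these letters and had a GC content of 75.2%. Among all 32851 windows of this length, 42.2% held the Smad-binding letters, 6.02% the palindrome and 12.4% the TATA-box letters, on either strand.

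Windows were available for 6 of the 10 genes, 11 windows in all. The Smad-binding letters were found in 6 windows of 4 genes, Tgfb2, Tgfbr1, Tgfbr2 and Tgif1. The letters CACCTG, an E-box that ZEB1 is known to bind and which reads CAGGTG on the other strand, were in 0 of the 11 windows and in 17.2% of all windows. The GATA-factor letters AGATAA, read on the other strand as TTATCT, were likewise in 0 of 11 and in 9.99% of all windows. These are matches of letters in short windows and carry no measurement of binding.

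Tgfb2 was the most abundant TGF-beta ligand transcript of these macrophages, per library and per length. The gene (ENSMUSG00000039239.14, chr1:186622792-186705989, minus strand, GRCm38) encodes TGF-beta 2. Its level was 564, 612 and 647 CPM in Zeb1 (+/-) replicates 1, 2 and 3, against 497, 571 and 468 CPM in wild-type replicates 1, 2 and 3. Only wild-type replicate 2 reached into the Zeb1 (+/-) range, so the groups overlapped by a single library. The means were 608 ± 41.8 CPM in Zeb1 (+/-) and 512 ± 53.3 CPM in wild-type (SD, n = 3 each), a log2 fold change of 0.25 ± 0.09 (SE) with a 95% confidence interval of 0.05 to 0.45. The unadjusted p was 0.0215 and the edgeR adjusted p 0.262, so the difference did not pass the threshold of 0.05. Of 6 markers of large peritoneal macrophages 0 passed, with a median log2 fold change of 0.19. Gata6, with the smallest p, was at 127 ± 3.31 CPM in Zeb1 (+/-) and 103 ± 8.83 CPM in wild-type (log2 fold change 0.31, edgeR adjusted p = 0.115). Icam2 was at 0.30, Prg4 at 0.21, Cd93 at 0.18 and Selp at 0.16 on the log2 scale, and Timd4 at −0.04. In bulk RNA, more cells of a type and more RNA per cell cannot be told apart. In the fit adjusted for B cell markers, which do not separate from genotype here, the log2 fold change of Tgfb2 was 0.03 and not past the threshold. With the structural RNA classes as a term it was 0.38, a value that rests on wild-type replicate 3 alone.

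Tgfb1 (ENSMUSG00000002603.15, chr7:25687002-25705077, plus strand) encodes TGF-beta 1, the form most widely made by immune cells. It was at 130, 148 and 157 CPM in Zeb1 (+/-) replicates 1, 2 and 3, against 152, 182 and 150 CPM in wild-type replicates 1, 2 and 3. Zeb1 (+/-) replicate 1 was the lowest and wild-type replicate 2 the highest, and the groups overlapped. The log2 fold change was −0.15 ± 0.10 (SE; 95% confidence interval −0.37 to 0.07), with an edgeR adjusted p of 0.498. With wild-type replicate 2 left out it was −0.058, with Zeb1 (+/-) replicate 1 left out −0.077, and −0.048 with the structural RNA classes as a term. B cells also make Tgfb1, and their share in its level was not tested. In the fit adjusted for B cell markers, which do not separate from genotype here, the log2 fold change of Tgfb1 was −0.35 (edgeR adjusted p = 0.314).

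Tgfb3 (ENSMUSG00000021253.6, chr12:86056745-86079041, minus strand), the third ligand gene, was close to undetected. It had 1, 3 and 9 counts in Zeb1 (+/-) replicates 1, 2 and 3, against 4, 3 and 1 counts in wild-type replicates 1, 2 and 3, or 0.0157 to 0.0810 CPM per kilobase of exon over all 6 libraries. Counts this low did not pass the expression filter and Tgfb3 was not tested. Its locus overlaps Ttll5 on the opposite strand, but the exons of these genes do not overlap. The strand setting of the counting is not given in the sources used here.

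**Figure D1:**
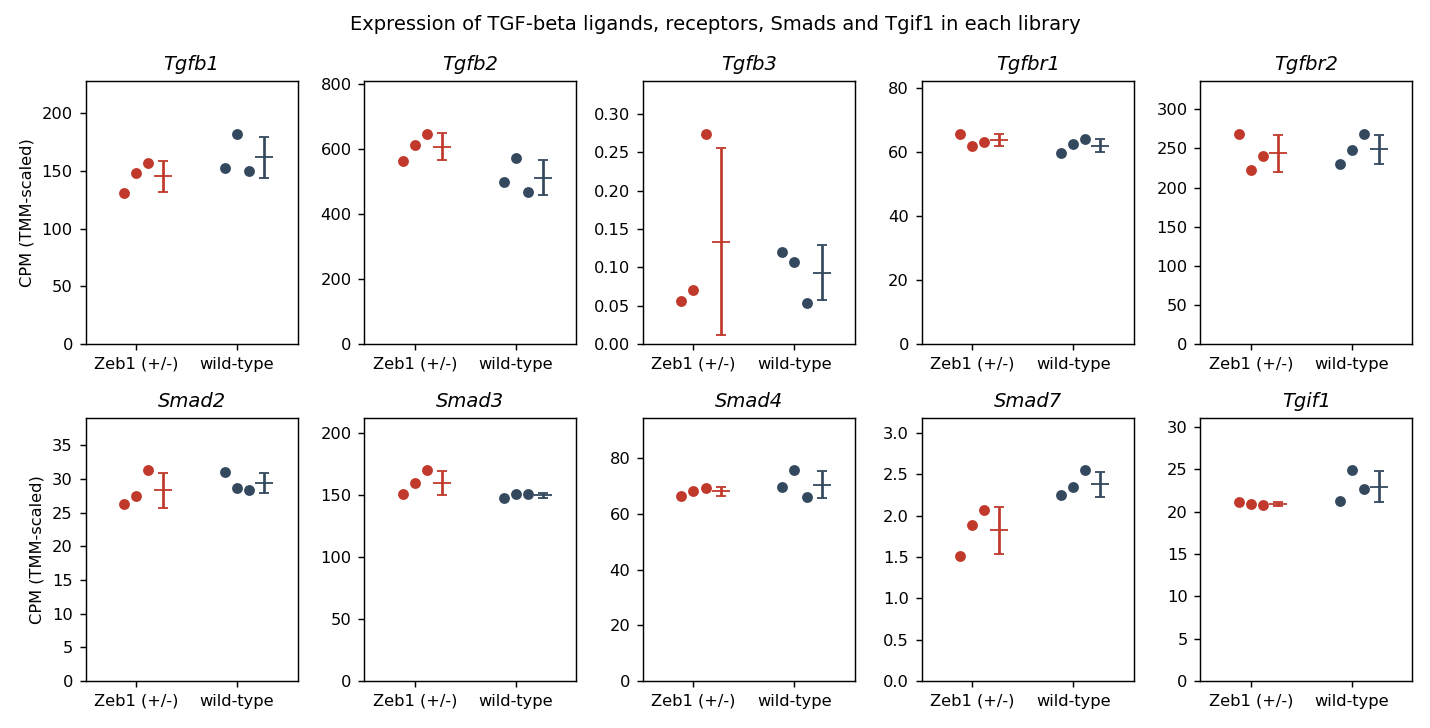
CPM of the 10 genes in each library, Zeb1 (+/-) in red on the left and wild-type in blue on the right, replicates 1 to 3 from left to right, with the mean and SD (n = 3 each) beside the points. Every vertical axis starts at 0. Tgfb2 lies between 468 and 647 CPM, Tgfb3 stays under 0.3 CPM, and the groups are apart for Smad7 and Tgif1 and overlap for the other 8 genes.

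The CPM ratio of the 2 expressed ligands did not overlap between genotypes in these libraries, though neither gene passed the test by itself. The ratio of Tgfb2 to Tgfb1 CPM within a library was 4.32, 4.13 and 4.12 in Zeb1 (+/-) replicates 1, 2 and 3, against 3.26, 3.14 and 3.11 in wild-type replicates 1, 2 and 3. Each genotype was tight, at 4.19 ± 0.113 in Zeb1 (+/-) and 3.17 ± 0.0805 in wild-type (SD, n = 3 each), a difference of 0.40 on the log2 scale. This pair was chosen after its values were seen, so it is described without a test. Of all 36 pairs among the 9 tested members, 14 (38.9%) had ratios that did not overlap between genotypes. These pairs reuse the same genes, and the share over pairs of all tested genes was not computed. The gap of the Tgfb2 and Tgfb1 pair was the second widest, after that of Tgfb2 over Smad7. The difference was 0.39 in the fit adjusted for B cell markers, and 0.43 in the 4 libraries of high structural RNA, where wild-type is replicate 3 alone and the value has no replicate check.

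Expressed per kilobase of exon, so that genes can be set against each other, the members spanned more than 3 orders of magnitude. Tgfb2 stood at 105 ± 7.22 CPM per kilobase in Zeb1 (+/-) and 88.4 ± 9.20 in wild-type (SD, n = 3 each), above 96.9% of the 12911 tested genes with a length. Next came Tgfb1 (30.4 CPM per kilobase over all 6 libraries), Tgfbr2 (30.1) and Smad3 (27.9), whose ranges over the 6 libraries overlapped one another. Smad4 followed at 18.7 and Tgfbr1 at 9.62, then Tgif1 at 3.90 and Smad2 at 3.28. Smad7 was at 0.465, above 12.8% of tested genes, and Tgfb3 at 0.0335. Apart from Tgfb1, Tgfbr2 and Smad3, no neighbours in this order overlapped over the 6 libraries. Taking the longest annotated transcript as the length kept the order, with Tgfb2 at 109 and Tgfb1 at 59.6 CPM per kilobase, so the lead of Tgfb2 was then narrower.

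**Figure D2:**
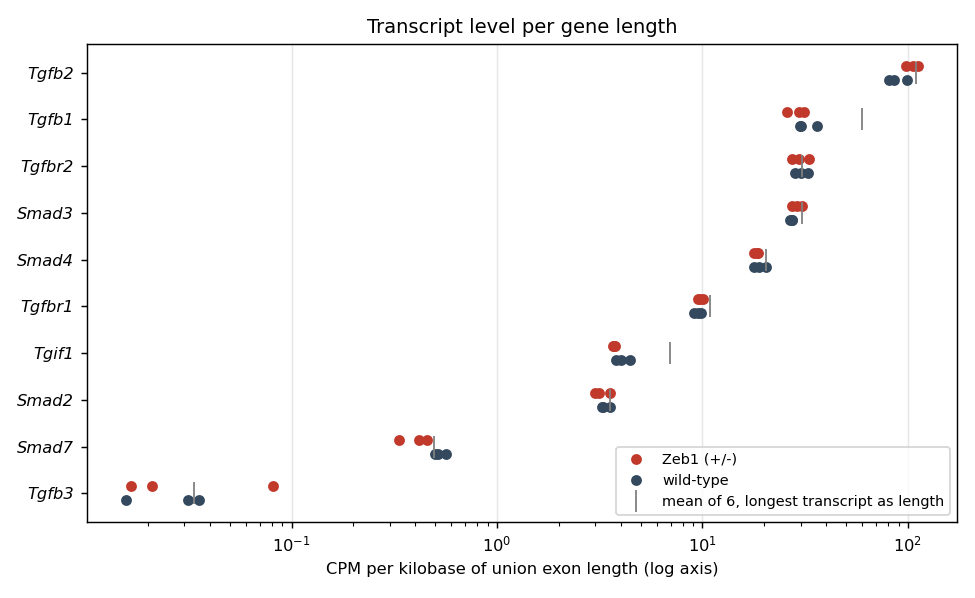
Level of each gene per kilobase of union exon length, on a log axis, with Zeb1 (+/-) libraries in red above wild-type libraries in blue. Grey ticks give the mean of the 6 libraries with the longest annotated transcript as the length. Tgfb2 is highest, Tgfb1, Tgfbr2 and Smad3 overlap near 30.1 CPM per kilobase, and Smad7 and Tgfb3 lie below 1 CPM per kilobase.

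Both receptor genes were expressed, and neither passed the test between genotypes. Tgfbr1 (ENSMUSG00000007613.15, chr4:47353222-47414931, plus strand), the type I receptor gene, was at 65.7, 62.0 and 63.3 CPM in Zeb1 (+/-) replicates 1, 2 and 3, against 59.7, 62.4 and 63.9 CPM in wild-type replicates 1, 2 and 3. The groups overlapped, and the highest library was 1.10 times the lowest, the narrowest range of any member. Its log2 fold change was 0.04 ± 0.06 (SE; 95% confidence interval −0.10 to 0.18; edgeR adjusted p = 0.814). Tgfbr2 (ENSMUSG00000032440.12, chr9:116084293-116175360, minus strand), the ligand-binding type II receptor gene, was at 269, 222 and 240.2 CPM in Zeb1 (+/-), against 230.4, 248 and 268 CPM in wild-type. The groups covered almost the same range. Its log2 fold change was −0.03 ± 0.09 (95% confidence interval −0.23 to 0.17; edgeR adjusted p = 0.901), and its sign turned in part of the alternatives. Tgfbr1 over Tgfbr2 was 0.262 ± 0.0172 in Zeb1 (+/-) and 0.250 ± 0.0103 in wild-type (SD, n = 3 each; two-sided exact permutation p = 0.4, Benjamini-Hochberg adjusted 0.4 over 3 ratios).

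The Smads that carry the signal were all expressed, and none passed the test between genotypes. Smad3 (ENSMUSG00000032402.12, chr9:63646767-63757994, minus strand) was the more abundant of the receptor-activated pair, at 150.3, 159 and 169.7 CPM in Zeb1 (+/-) replicates 1, 2 and 3, against 148, 150.3 and 151 CPM in wild-type replicates 1, 2 and 3. Wild-type libraries lay within a narrow band that Zeb1 (+/-) replicate 1 just touched. Its log2 fold change was 0.10 ± 0.07 (SE; 95% confidence interval −0.05 to 0.24; edgeR adjusted p = 0.532). Smad2 (ENSMUSG00000024563.15) was at 26.2, 27.4 and 31.3 CPM in Zeb1 (+/-), against 31.1, 28.6 and 28.4 CPM in wild-type. The groups overlapped, and the log2 fold change was −0.05 ± 0.08 (95% confidence interval −0.24 to 0.14; edgeR adjusted p = 0.813). Smad4 (ENSMUSG00000024515.13), the partner shared with the BMP pathway, was at 66.5, 68.4 and 69.5 CPM in Zeb1 (+/-), against 69.9, 75.7 and 66.0 CPM in wild-type. Its groups overlapped too, with a log2 fold change of −0.05 ± 0.07 (95% confidence interval −0.20 to 0.10; edgeR adjusted p = 0.780).

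Per kilobase, Smad2 was at 0.112 ± 0.00404 of the level of Smad3 in Zeb1 (+/-) and at 0.124 ± 0.00779 in wild-type (SD, n = 3 each). The ratio of their CPM was 0.175, 0.172 and 0.184 in Zeb1 (+/-) replicates 1, 2 and 3, against 0.211, 0.191 and 0.188 in wild-type replicates 1, 2 and 3. The groups did not overlap, by a narrow margin, and the two-sided exact permutation p was 0.1 (adjusted 0.15 over 3 ratios), the smallest that 3 against 3 allows.

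Smad7, the feedback inhibitor, was the scarcest of the tested members. Smad7 (ENSMUSG00000025880.11) was at 1.51, 1.89 and 2.07 CPM in Zeb1 (+/-) replicates 1, 2 and 3, against 2.25, 2.34 and 2.55 CPM in wild-type replicates 1, 2 and 3, from 27 to 80 counts a library. Every Zeb1 (+/-) library lay below every wild-type library. The log2 fold change was −0.36 ± 0.19 (SE), the largest in size among the members, but its 95% confidence interval of −0.79 to 0.07 was also the widest and the edgeR adjusted p was 0.421. Smad7 over Smad3 was 0.0100, 0.0119 and 0.0122 in Zeb1 (+/-), against 0.0153, 0.0156 and 0.0169 in wild-type, again with no overlap (difference −0.49 on the log2 scale; two-sided exact permutation p = 0.1, adjusted 0.15 over 3 ratios). Tgif1 (ENSMUSG00000047407.17, chr17:70844205-70853546, minus strand), the co-repressor gene, was at 21.1, 20.9 and 20.7 CPM in Zeb1 (+/-), against 21.2, 24.9 and 22.7 CPM in wild-type. The groups did not overlap, though replicate 1 of each genotype was almost level, and the log2 fold change was −0.13 ± 0.08 (95% confidence interval −0.31 to 0.04; edgeR adjusted p = 0.464), or −0.068 without wild-type replicate 2.

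Smad2, Smad4 and Smad7 lie on chromosome 18, as Zeb1 does, at chr18:76241580-76310963, chr18:73639009-73703780 and chr18:75367529-75395935. They start 70.5, 67.9 and 69.6 Mb beyond the end of Zeb1. Their log2 fold changes were −0.05, −0.05 and −0.36, none past the threshold.

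Over the whole group, 0 of the 9 tested members passed the edgeR quasi-likelihood test, which called 76 of 12940 genes (0.587%). DESeq2 and limma-voom also called 0 members. Tgfb2 alone had an unadjusted p under 0.05, as did 14.6% of all tested genes. Smad7 and Tgif1 had groups that did not overlap, 2 of 9, beside 19.9% of all tested genes. There were 3 positive and 6 negative log2 fold changes, with a median of −0.05 against −0.00 over all tested genes, and a median size of 0.10 against 0.12. For 8 of the 9, all but Smad7, the 95% confidence interval lay within a 1.5-fold change in either direction. A p above the threshold does not show that the levels were equal.

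**Figure D3:**
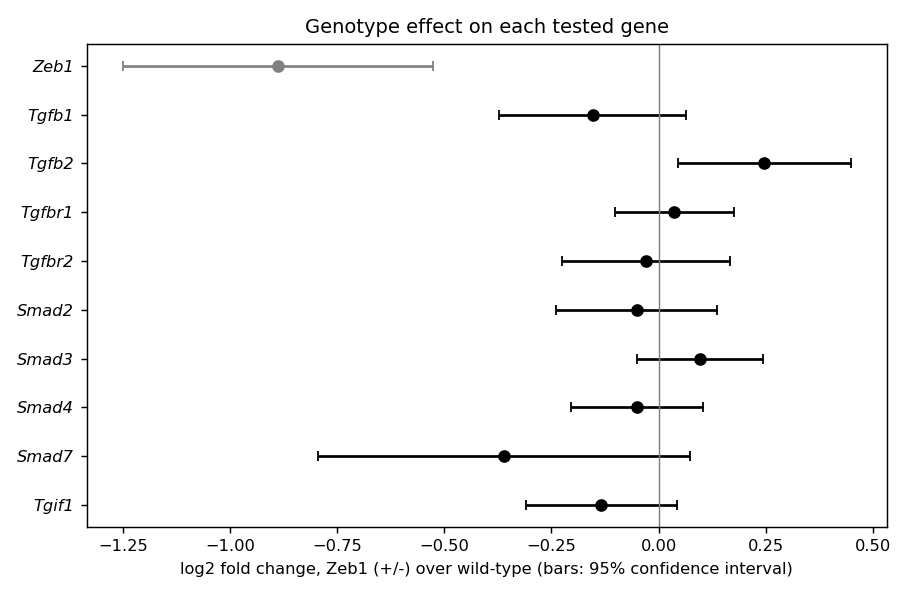
Log2 fold change of Zeb1 and of each tested member, Zeb1 (+/-) over wild-type, with 95% confidence intervals from the edgeR fit. Tgfb2 is the single member whose unadjusted interval (0.05 to 0.45) leaves out 0, and Smad7 has the widest interval (−0.79 to 0.07).

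**Figure D4:**
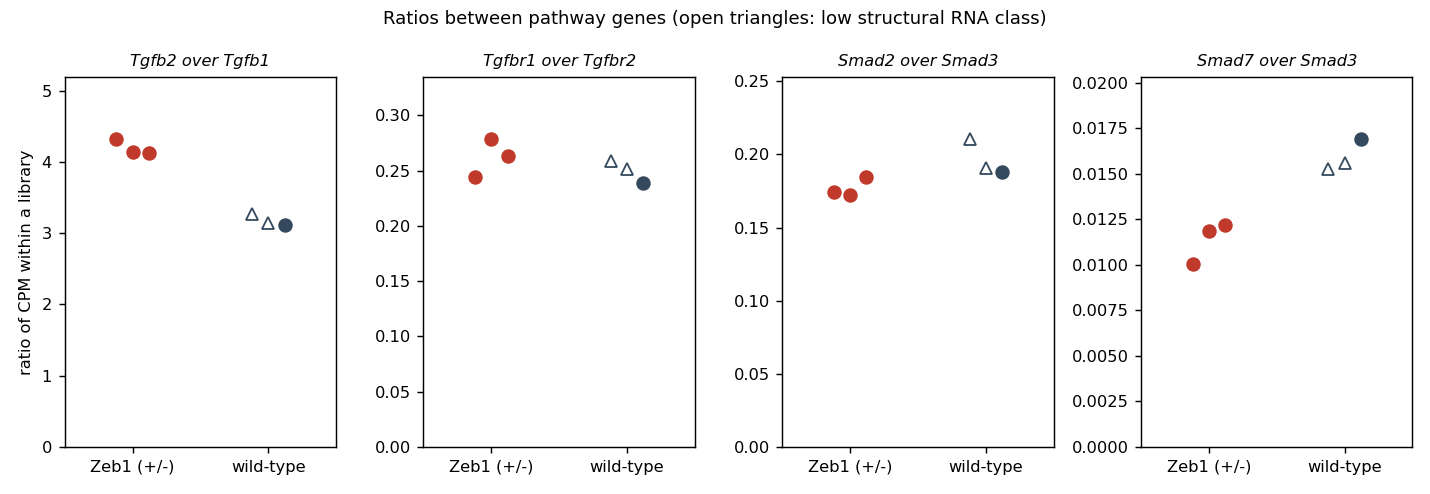
Ratio of CPM of 4 pairs of genes within each library, Zeb1 (+/-) in red on the left and wild-type in blue on the right, replicates 1 to 3 from left to right, with axes from 0. Open triangles are the wild-type libraries of low structural RNA. Tgfb2 over Tgfb1 lies at 4.12 to 4.32 in Zeb1 (+/-) and 3.11 to 3.26 in wild-type, while Tgfbr1 over Tgfbr2 overlaps.

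The genes whose pattern over the 6 libraries was nearest to that of Tgfb2 were Alg6, Alg14 and Kcnk13. Likeness was the root mean square difference in log2 CPM after centring each gene on its own mean, among 10798 other genes of at least 2 CPM. The values were 0.0208 for Alg6, 0.0432 for Alg14 and 0.0481 for Kcnk13, against a median of 0.195. These genes were picked as the nearest, so their values lie below the median by selection. Alg6 and Alg14 encode enzymes of N-glycan synthesis and Kcnk13 a potassium channel. Kcnk13 was at 62.9 CPM in Zeb1 (+/-) and 53.2 CPM in wild-type (log2 fold change 0.24, edgeR adjusted p = 0.174). Alg6 was at 9.55 CPM in Zeb1 (+/-) and 8.13 CPM in wild-type (edgeR adjusted p = 0.366). For Alg14 the values were 11.1 and 9.38 CPM (edgeR adjusted p = 0.308).

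Genes around the core pathway were read from 7 lists of 81 tested genes, each gene counted once. Of the 81, 1 passed the edgeR test, beside 0.587% of all tested genes. Of the genes that store and free latent TGF-beta, 1 of 12 tested passed the threshold as higher and 0 as lower. The unadjusted edgeR p was under 0.05 for 8 of the 12, 4 higher and 4 lower, beside 14.6% of all tested genes. Groups did not overlap for 6 of the 12, beside 19.9% of all tested genes. Itgb1, the integrin beta 1 chain that pairs with alpha v and other alpha chains, rose to 1724 ± 69.9 CPM in Zeb1 (+/-), against 1298 ± 16.8 CPM in wild-type (SD, n = 3 each; log2 fold change 0.41 ± 0.06 SE; edgeR adjusted p = 0.0328). That call was lost in 8 of 15 alternatives, among them 5 of the 6 fits with 1 library left out (without either of Zeb1 (+/-) replicates 1 and 2 or any wild-type library), with the log2 fold change between 0.38 and 0.44 in the 6. Across the 12 genes the median was −0.16, and −0.10 without Zeb1 (+/-) replicate 1. The number of the 12 past the threshold was 5 with DESeq2 (Itgb1, Furin, Lrrc32, Ltbp1 and Ltbp3) and 5 with no low-count filter (Itgb3 in place of Ltbp1). Those settings called 351 and 522 of all genes, against 76 in the main fit. The number was 0 with the replicate block or the B cell adjustment. By level, Ltbp1, a latent TGF-beta binding protein, was at 1578 CPM in Zeb1 (+/-) and 1307 CPM in wild-type. Nrros, which tethers latent TGF-beta on myeloid cells, was at 285 and 331 CPM. Thbs1, a matrix protein known to activate latent TGF-beta, was at 3600 and 3855 CPM in Zeb1 (+/-) and wild-type. The integrin gene Itgb6 had 0 counts in every library.

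Of 11 accessory and related receptors tested, 0 passed, and the smallest p belonged to Acvrl1, an endothelial type I receptor gene (3.60 CPM in Zeb1 (+/-), 5.34 CPM in wild-type; log2 fold change −0.57, edgeR adjusted p = 0.265). The value for Acvrl1 was −0.11 with the structural RNA term and −1.16 with the B cell adjustment. All 11 log2 fold changes were below 0, with a median of −0.12. With the structural RNA term 8 of 11 were below 0 (median −0.056), and without Zeb1 (+/-) replicate 2 it was 9 of 11 (median −0.061). Without wild-type replicate 1 it was 8 of 11, and Tgfbr3, the betaglycan co-receptor gene, was then past the threshold. Of the 3 tested Smads outside the core group 0 passed, and Smad1 of the BMP branch was at 26.2 and 24.5 CPM (log2 fold change 0.10, edgeR adjusted p = 0.646, and −0.04 with the structural RNA classes as a term).

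Among 16 co-repressors and co-factors of Smads 0 passed, and all 16 values were below 0, with a median of −0.12, though 11 of 16 were below 0 with the structural RNA classes as a term. Zeb1 itself had the smallest p of this list. Its relative Zeb2 was at 514 CPM in Zeb1 (+/-) and 558 CPM in wild-type. Among 20 ubiquitin, phosphatase and adaptor regulators 0 passed and 18 values were below 0 (median −0.06), or 12 of 20 with the B cell adjustment. The ubiquitin ligase gene Smurf1, which with SMAD7 turns over the receptor, had the smallest p there, at 42.6 and 49.6 CPM in Zeb1 (+/-) and wild-type (log2 fold change −0.22, edgeR adjusted p = 0.284; −0.13 without wild-type replicate 2).

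Of the genes reported elsewhere to respond to TGF-beta, 24 were listed. Of 17 tested, 0 passed, 12 were below 0 and 5 above, and the median was −0.21, or −0.13 with the structural RNA term or without wild-type replicate 2. With no low-count filter Junb, Skil and Myc were past the threshold, a setting that called 522 of all genes. Junb, an AP-1 subunit gene, had the smallest p, at 216 ± 24.7 CPM in Zeb1 (+/-) and 300.1 ± 35.6 CPM in wild-type (log2 fold change −0.47, edgeR adjusted p = 0.0988, from 0.00162 to 0.621 over 15 alternatives). Fn1, fibronectin, was at 43922 and 41719 CPM, and Tgfbi, a matrix protein named for its induction by TGF-beta, at 865 and 813 CPM in Zeb1 (+/-) and wild-type. Skil, Smad6, Pmepa1 and Tgfbr3 are on this list and on another. Over the 7 lists, which include Zeb1 itself, 68 of 81 genes had values below 0, beside 50.1% of all tested genes, with a median of −0.115. That total is from the main fit alone and was not tested, and the counts of single lists moved with the settings as given above.

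**Figure D5:**
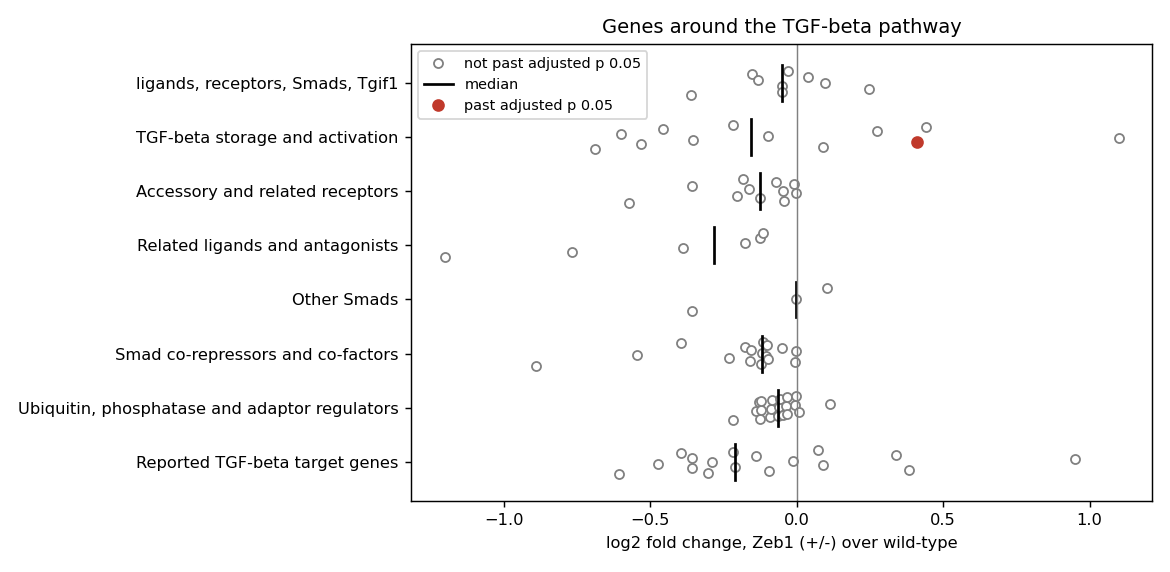
Log2 fold change, Zeb1 (+/-) over wild-type, of each tested gene in the core group and the 7 surrounding lists, with a black line at each median. The filled red point is Itgb1, the single gene past an adjusted p of 0.05, and the medians of the 7 lists lie between −0.28 and −0.00.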

How the data were processed

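Per the labels' protocols, RNAzol was used for extraction and TruSeq Stranded mRNA for the libraries. The authors deposited estimated counts per gene, and the submitters' processing notes name STAR, RSEM, edgeR and GRCm38 without version or order. All values were whole numbers. The annotation release and strand setting are not given in the sources used here. Columns were mapped by the identifiers in the sample descriptions, and 0 were left unmapped.

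Genes were kept by filterByExpr (minimum count 10, minimum total 15), which left 12940. Genotype was tested with edgeR 4.0.16 in R 4.3.3 by the quasi-likelihood method with TMM scaling (factors 0.976 to 1.01), and p-values were adjusted over all tested genes at a threshold of 0.05. The SE is the log2 fold change divided by the square root of F. Ratios were tested by exact permutation. Coordinates and union exon lengths came from GENCODE M21 (GRCm38), which matched 99.3% of identifiers, and promoters from RefSeq (GRCm38.p6). Of the 50-base stretches of Tgfb1 and Tgfbr2, 0.278% and 0.586% also occur in other genes, and 0% for the other 8. Replicates differed by more than sampling noise. The method was tested on simulated data, with changes larger than any seen among the tested members.

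The members, lists and tests were chosen with earlier results of these data known. The motifs and the ratio of Tgfb2 to Tgfb1 were chosen after the values were seen. From each list the text names the genes past the threshold, or failing any the one with the smallest p, and others by level. Alternatives used RLE scaling, other filters, DESeq2 1.42.0, limma-voom (limma 3.58.1), robust moderation, an adjusted p under 0.1, the replicate number as a block, a structural RNA term, a B cell covariate and each library left out. Structural RNA was small nuclear, ribosomal, ribozyme and miscellaneous RNA, and its classes were the low and the high libraries.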

Additional observations from a re-analysis of the deposited data

How the results depend on the processing

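The count of members past the threshold was 0 under all alternatives run. The count of all genes, 76, was 522 with no low-count filter, 351 with DESeq2, 214 at an adjusted p under 0.1, 31 with the structural RNA classes as a term, 4 with adjustment for B cell markers, and 5 to 127 with 1 library left out (5 without wild-type replicate 2, 11 and 28 without Zeb1 (+/-) replicates 2 and 1, 127 without Zeb1 (+/-) replicate 3). With the replicate block it was 15. Nothing in the labels pairs the replicate numbers, and same-numbered libraries did not deviate together (correlations −0.25, −0.03 and −0.17). The block changed the call of no member.

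Small log2 fold changes turned sign. With the structural RNA classes as a term Tgfbr1 was at −0.0077, Smad2 at 0.00094, Smad4 at 0.047 and Smad1 at −0.040. In the 4 libraries of high structural RNA alone Tgfbr1 was at −0.0071 and Smad4 at 0.047. Both settings rest on wild-type replicate 3 alone, so the latter is no separate check of the former. With the B cell covariate Tgfbr2 was at 0.13. With 1 library left out Tgfbr2 ran from −0.10 to 0.039, Smad2 from −0.13 to 0.0024 and Smad4 from −0.093 to 0.0050. The cause was not tested. With the longest transcript as the length, levels per kilobase were 109 for Tgfb2, 59.6 for Tgfb1, 30.4 for Smad3, 20.5 for Smad4, 10.9 for Tgfbr1, 6.97 for Tgif1 and 3.57 for Smad2. The log2 difference in the ratio of Tgfb2 to Tgfb1 ran from 0.38 to 0.42 with 1 library left out, and from 0.39 to 0.43 over the other alternatives. A ratio within a library does not depend on its scaling, so several of these settings could hardly move it. The pair was also chosen after its values were seen, so these ranges are no support for the difference. With 1 library left out Tgfb1 ran from −0.21 to −0.058, Tgfb2 from 0.19 to 0.33, Smad3 from 0.055 to 0.14, Smad7 from −0.45 to −0.26 and Tgif1 from −0.19 to −0.068. Depth limits Smad7 and Tgfb3 most.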

Other observations

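Related ligands and antagonists of the TGF-beta family were mostly at or near 0 in these macrophages. Of 20 genes listed, 6 were expressed enough to be tested and 5 had 0 counts in every library, among them the activin subunit gene Inhbb and the BMP antagonist gene Nog. Bmp2, a BMP ligand gene, was the most abundant at 23.1 ± 2.95 CPM in Zeb1 (+/-) and 25.3 ± 5.88 CPM in wild-type (SD, n = 3 each), far below Tgfb2 on the CPM scale. Gdf15, a stress-responsive ligand gene, had the smallest p, at 0.937 ± 0.270 CPM in Zeb1 (+/-) and 2.14 ± 0.793 CPM in wild-type (log2 fold change −1.20, edgeR adjusted p = 0.151, from 0.0111 to 0.789 over 15 alternatives), and its groups did not overlap. Groups did not overlap for 19.9% of all tested genes, and Gdf15 was low, down to 0.780 CPM in Zeb1 (+/-) replicate 2. The log2 fold change of Gdf15 was −0.49 with the structural RNA term and −2.11 with the B cell adjustment. Of the 6 tested, 0 passed the threshold, and the median was −0.28, or −0.16 with wild-type replicate 2 left out and −0.17 over the 5 genes tested with Zeb1 (+/-) replicate 2 left out.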
